A study of Mus musculus with 16 samples.

Results

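The total number of reads on each gene was compared between 5 astrocyte libraries and 3 libraries of neural progenitor cells (NPCs), all made from poly(A)-enriched RNA. They are 8 of the 16 libraries of the series, chosen by cell type and RNA preparation, and another 8 NPC libraries, which had been depleted of ribosomal RNA, were not used. All cells came from mouse embryonic stem cells of a 129Sv x Cast/EiJ cross, which were turned into NPCs and then cloned by picking colonies after limiting dilution, so that each library stands for 1 clone and is its own replicate. The NPC clones F5 (female), mG2 and mG6 (male) were grown in N2B27 medium with EGF and FGF2 at 10 ng/mL each. For the astrocytes, NPC clones named 129, C2 and G4 (female) and mC3 and mE6 (male) were moved for 48 h to N2B27 with FGF2 at 1 ng/mL and BMP4 at 10 ng/mL, and no EGF is listed for this medium. No clone is in both groups, so that the differences below lie between clones as well as between cell types. BMP4, the lower FGF2 and the missing EGF changed together and cannot be told apart. The sample titles hold the code B145 in all 3 NPC libraries and A234 or B129 in the astrocyte libraries, and what the codes stand for is not stated, so that the code and the cell type cannot be told apart.

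NPCs are dividing cells that EGF and FGF2 keep in a self-renewing state, and they can give rise to neurons, astrocytes and oligodendrocytes. Bone morphogenetic proteins such as BMP4 bind serine/threonine kinase receptors, which phosphorylate the receptor SMADs, and these raise the transcription of the Id genes and of inhibitors of the pathway itself. In cultures of neural stem cells BMP ligands are used to stop division and to obtain cells that express Gfap, the intermediate filament gene of astrocytes. Genes for DNA replication are typically driven by E2F factors in late G1 and S phase, and genes for mitosis by the MuvB complex at a promoter element called the cell cycle genes homology region (CHR).

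The tables held 69925081 to 105892734 reads on genes per library. On the log2 scale, Pearson's r across genes was 0.900 to 0.969 between pairs of astrocyte libraries, 0.945 to 0.974 between pairs of NPC libraries and 0.855 to 0.900 between the groups. The first principal component held 45.2% of the variance and put the groups apart, while on the second (19.7%) the astrocyte library of clone 129 stood apart from all others. Whole chromosomes also differed in level in single libraries. The median gene of chromosome 3 was 0.35 and that of chromosome 18 was 0.38 above the mean of the 8 libraries on the log2 scale in the astrocytes of G4, and that of chromosome 1 was 0.29 above it in the astrocytes of 129. Xist, the RNA that coats the inactive X chromosome, had 103020 to 163039 reads in the 4 female clones and 30 to 92 in the 4 male ones. Among Y-linked genes, Ddx3y, Uty and Eif2s3y had 8551, 3427 and 7376 reads in mG6, 7728, 4028 and 0 in mC3, 0, 3123 and 1 in mG2, and 1, 31 and 0 in mE6. The Y-linked genes thus did not mark mE6 as male, and its Uty reads were no more than those of the female clones (45 to 92). Its Xist reads, 30, were as low as those of the other male clones. The reason was not tested.

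**Figure D1:**
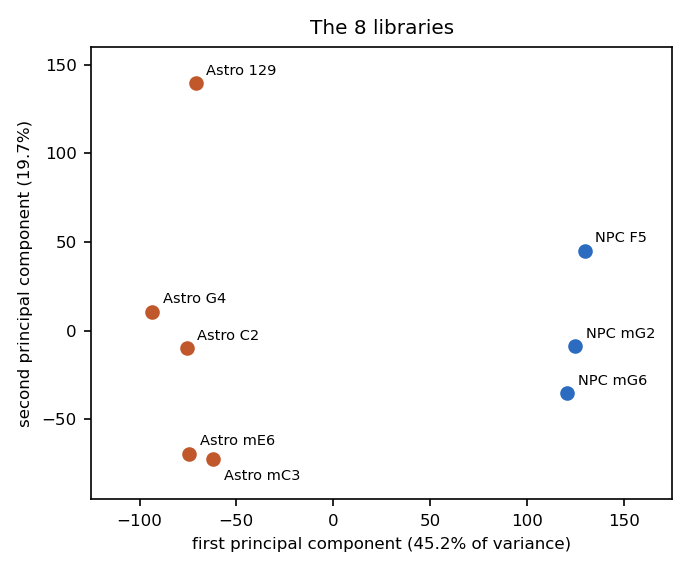
The 8 libraries on the first and second principal component of log2 expression, with the share of variance in percent on each axis (orange: astrocytes, blue: NPCs). The groups are apart on the first component, and astrocyte library 129 lies at 139.5 on the second.

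The labels of both groups were checked on 4 marker genes. In this and all following sentences, values by library are CPM, the read count of a gene scaled to the TMM-normalized size of its library, in the order 129, C2, G4, mC3 and mE6 for astrocytes and F5, mG2 and mG6 for NPCs. Gfap had 1977, 65.4, 224, 165 and 254 CPM in the astrocytes and 0.669, 2.12 and 1.82 CPM in the NPCs. The CPM of Aqp4 were 65.9, 53.8, 129, 15.9 and 90.3 in astrocytes and 3.5, 1.08 and 0.529 in NPCs. Gfap and Aqp4, the water channel gene of astrocyte endfeet, were higher in every astrocyte library than in any NPC library (Gfap log2 fold change 8.45, SE 1.55, adjusted p = 0.00674, and Aqp4 log2 fold change 5.37, SE 0.93, adjusted p = 0.00535). The level of Gfap varied widely among the astrocytes and was highest in clone 129. In the astrocytes Nes had 75.5, 115, 61.7, 121 and 95.2 CPM, compared with 1066, 1148 and 1682 CPM in the NPCs. Mki67 was measured at 1.08, 2.02, 0.622, 2.29 and 0.487 CPM in astrocyte libraries and at 426, 477 and 445 CPM in NPC libraries. Nes, the intermediate filament gene of neural progenitors, and Mki67, which is expressed in cycling cells, fell (Nes log2 fold change -3.79, SE 0.28, adjusted p = 9.74e-05, and Mki67 log2 fold change -8.43, SE 0.59, adjusted p = 7.8e-05), and no astrocyte library reached the level of an NPC library. Bulk RNA cannot tell fewer cells of a kind from less RNA of a gene per cell, and this holds for all results below.

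**Figure D2:**
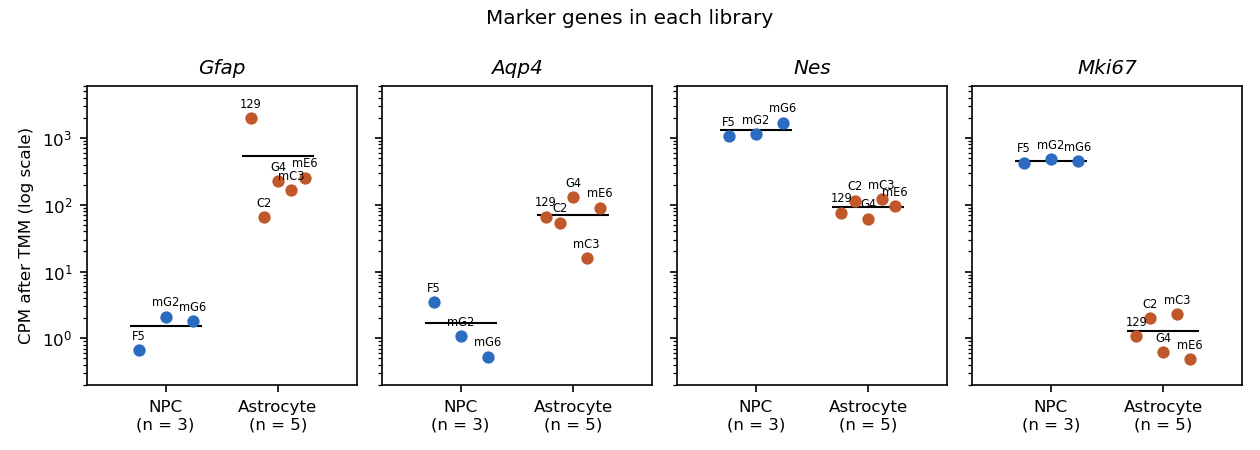
CPM of the 4 marker genes on a log axis in each of the 3 NPC and 5 astrocyte libraries, each named by its clone, with the group mean as a line. The groups do not overlap for any of the 4 genes, and Gfap ranges from 65.4 to 1977 CPM among the astrocytes.

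Across all genes tested, 2360 were higher and 2284 lower in astrocytes out of 18192, which is 13.0% and 12.6% (edgeR's quasi-likelihood test, Benjamini-Hochberg adjusted p under 0.05). Of the 4644 called genes, 1930 differed at least 4-fold, 1120 of them upwards and 810 downwards. The ranges of the groups did not overlap for 4398 of the called genes and for 5947 of all 18192 genes tested. The median log2 fold change of all genes was 0.08, and its median standard error (SE) 0.36. The shares 13.0% and 12.6% are the background for the counts in gene lists below, which are given as a description and with no test of the list. Where leaving out a library moved a list count of 6 or more by over 1.5 times, the counts without it are given, and 64 of 80 counts of 1 to 5 moved by as much under some omission. Counts over all genes moved too. Genes higher were 1227 of 18831 without F5, 1000 of 18798 without mG2 and 1205 of 18787 without mG6. Genes lower were 1440, 1269 and 1825 in the same order. Leaving out 1 astrocyte library gave 1785 to 2505 higher and 1684 to 2344 lower. List counts without a library are to be read beside these and not beside 13.0% and 12.6%. Where a list count is 0 in one direction, DESeq2 also gave 0 in 23 of 30 cases and limma-voom in 26, and an unadjusted edgeR p under 0.05 was reached by at most 3 genes. Of the genes called higher, 31 had no read in any NPC library, so that their fitted fold changes depend on the prior count. These fold changes are not printed, but they enter the ranking by fold change, the medians and the number of genes at least 4-fold different. The number of genes called was 2269 without mG2, 2667 without F5 and 3030 without mG6, and leaving out mG6 moved the share of calls that were higher from 50.8% to 39.8%. Without the astrocytes of clone 129, 4849 genes were called. Among the genes called lower, mG6 was the NPC library closest to the astrocytes for 56.9%, and the astrocytes of 129 were the astrocyte library closest to the NPCs for 33.6%.

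**Figure D3:**
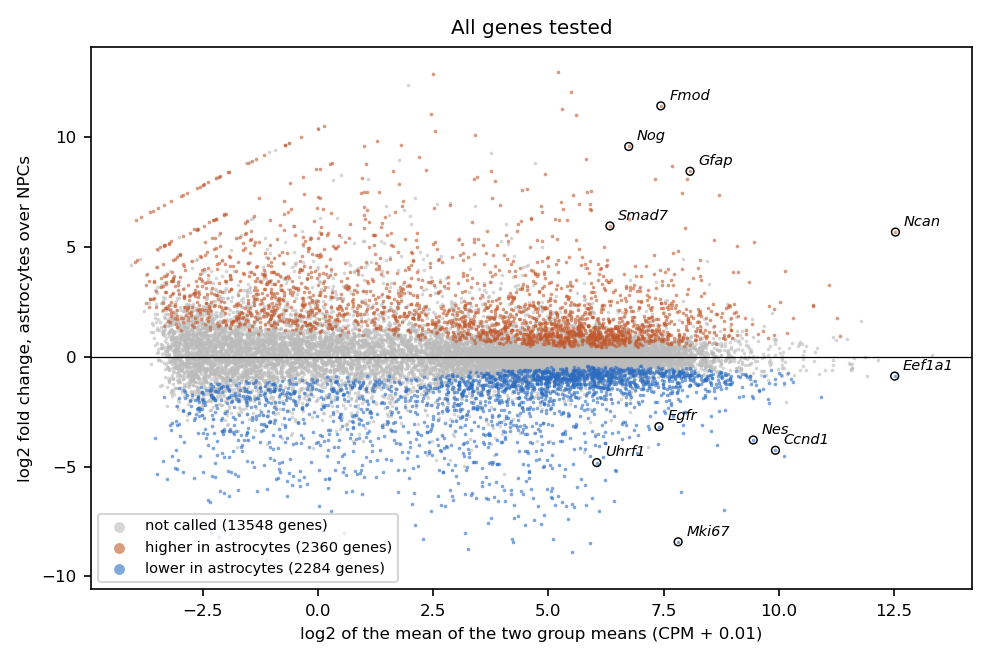
Log2 fold change of each of the 18192 genes tested against its level, the log2 of the mean of the 2 group means in CPM. The 2360 genes higher in astrocytes are orange, the 2284 lower ones blue and 11 genes named in the text are labelled.

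The lowest medians of all 76 lists belonged to the cell cycle. Of 66 tested genes for mitosis and chromosome segregation, 64 were lower in astrocytes and 0 higher, with a median log2 fold change of -5.45. Their summed level was 309 to 493 CPM in the astrocytes and 4883 to 5868 CPM in the NPCs. For Aurkb, the astrocyte libraries gave 0.257, 0.317, 0.156, 0.266 and 0.111 CPM and the NPC libraries 55, 45.7 and 33.8 CPM. Knl1 had 0.257, 0.331, 0.259, 0.532 and 0.111 CPM in the astrocytes and 37.3, 64.2 and 51.8 CPM in the NPCs. The CPM of Hmmr were 0.45, 0.741, 0.285, 0.748 and 0.332 in astrocytes and 75.1, 91.5 and 91.7 in NPCs. Aurkb, the kinase of the chromosomal passenger complex, Knl1, a kinetochore scaffold, and Hmmr, a spindle protein, were below 1 CPM in every astrocyte library. The fold changes were of similar size (log2 fold change -7.65, SE 0.40, adjusted p = 2.55e-05 for Aurkb, log2 fold change -7.42, SE 0.49, adjusted p = 6.53e-05 for Knl1 and log2 fold change -7.39, SE 0.39, adjusted p = 2.55e-05 for Hmmr). With any 1 library left out, 63 to 66 genes of this list were called lower.

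Because these genes fell together, their promoters were taken from RefSeq. Windows from 250 bases before to 50 after the gene start on GRCm38.p6 were searched on both strands for the CHR (TTTGAA) and the CCAAT box (CCAAT), and the windows of 9134 tested genes with 1 window each served for comparison. The CHR was in 34 of the 51 mitosis genes with a window (66.7%) and in 1094 of the 9134 (12%), and the share was 16.4% among genes called lower and 8.69% among those called higher. The CCAAT box was in 66.7% of the mitosis genes and 39.1% of the tested genes. Further motifs were searched in the same windows, and not all are reported here. The 3 most lowered mitosis genes with a CHR in the window are shown because their sequence carries the element, 5′ to 3′ on the strand of the gene, with the letters of both elements in capitals. The run of 250 bases ends at the gene start, and for Knl1 and Hmmr, whose CHR lies within the transcript, 30 transcribed bases are given too.
Mki67, chr7:135716380-135716629, minus strand: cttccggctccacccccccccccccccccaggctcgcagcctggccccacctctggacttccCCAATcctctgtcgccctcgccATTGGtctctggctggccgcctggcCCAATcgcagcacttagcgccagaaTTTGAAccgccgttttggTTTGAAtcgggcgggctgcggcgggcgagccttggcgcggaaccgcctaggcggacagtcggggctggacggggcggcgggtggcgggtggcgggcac
Knl1, chr2:119046869-119047118, plus strand: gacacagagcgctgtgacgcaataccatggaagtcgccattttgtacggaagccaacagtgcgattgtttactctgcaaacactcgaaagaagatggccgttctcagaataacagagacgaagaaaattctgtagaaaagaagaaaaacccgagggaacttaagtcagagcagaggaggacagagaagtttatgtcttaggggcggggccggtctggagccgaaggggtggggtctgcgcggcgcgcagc
Knl1 transcribed, chr2:119047139-119047168, plus strand: gggcggttagaTTTGAAtacttcagggacg
Hmmr, chr11:40733438-40733687, minus strand: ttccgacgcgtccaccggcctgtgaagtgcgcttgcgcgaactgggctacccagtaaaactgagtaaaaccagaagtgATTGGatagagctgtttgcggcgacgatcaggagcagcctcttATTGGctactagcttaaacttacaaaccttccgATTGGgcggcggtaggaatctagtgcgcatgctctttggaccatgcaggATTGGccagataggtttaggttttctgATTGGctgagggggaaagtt
Hmmr transcribed, chr11:40733408-40733437, minus strand: gaggtaaaTTTGAAttcaggcgagctgaca

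Mki67 held 2 CHRs, which start at -116 and -98, below 3 CCAAT boxes, while Hmmr held 1 CHR at 9 and 5 CCAAT boxes and Knl1 1 CHR at 32 and none of the CCAAT letters, counted from the first transcribed base. A match shows only that the letters are there.

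Genes for origins of replication and DNA synthesis followed, with 41 of 44 lower and 0 higher and a median log2 fold change of -2.38. In the astrocytes Mcm10 had 0.879, 0.556, 0.583, 0.38 and 0.21 CPM, compared with 43, 32 and 32.2 CPM in the NPCs. Cdc6 was measured at 0.729, 0.317, 0.415, 0.469 and 0.277 CPM in astrocyte libraries and at 26.5, 21.6 and 20.8 CPM in NPC libraries. For Mcm5, the astrocyte libraries gave 6.2, 6.08, 4.06, 3.74 and 4.46 CPM and the NPC libraries 150, 107 and 83.6 CPM. Mcm10 and Cdc6 act in the loading and firing of origins and Mcm5 is a subunit of the replicative helicase (log2 fold change -6.09, SE 0.45, adjusted p = 9.65e-05, log2 fold change -5.70, SE 0.37, adjusted p = 6.5e-05 and log2 fold change -4.53, SE 0.27, adjusted p = 3.71e-05, respectively). Any of 3 forms of the E2F site (TTTCGCGC, TTTGGCGC or TTCCCGCC) was in 14 of 31 promoter windows of this list (45.2%), against 13.7% of the mitosis genes and 5.61% of all tested genes. The CHR was in 9.68% of the windows of this list, and the CCAAT box in 61.3%, close to its share among the mitosis genes. In the related list of homologous recombination and Fanconi repair, 25 of 38 genes were lower and 0 higher, among them the nuclease gene Exo1 (log2 fold change -4.90, SE 0.35, adjusted p = 8.24e-05) and Fancd2 (log2 fold change -4.90, SE 0.36, adjusted p = 9.42e-05). Of 34 genes of nucleotide synthesis 23 were lower and 0 higher, with a summed level of 1339 to 1628 CPM against 2438 to 3429 CPM. Rrm2 had 3.57, 3.88, 5.92, 6.13 and 4.34 CPM in the astrocytes and 183, 168 and 160 CPM in the NPCs. The CPM of Tk1 were 2.27, 2.2, 2.18, 1.36 and 1.92 in astrocytes and 67.7, 45.5 and 40.7 in NPCs. The ribonucleotide reductase subunit gene Rrm2 (log2 fold change -5.16, SE 0.23, adjusted p = 1.77e-05) and the thymidine kinase gene Tk1 (log2 fold change -4.69, SE 0.26, adjusted p = 3.07e-05) thus stayed below 7 CPM in all astrocytes.

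The brakes of the cell cycle moved less and not all one way. Of 9 tested genes for CDK inhibitors and pocket proteins, 3 were higher and 1 lower. In the astrocytes Cdkn1b had 318, 219, 206, 195 and 192 CPM, compared with 85.1, 79.8 and 79.1 CPM in the NPCs. Rb1 was measured at 133, 131, 87.3, 157 and 131 CPM in astrocyte libraries and at 45.7, 59.3 and 63.6 CPM in NPC libraries. For Rbl1, the astrocyte libraries gave 12.2, 5.15, 13.5, 8.82 and 8.48 CPM and the NPC libraries 49.8, 54.1 and 51.6 CPM. The inhibitor gene Cdkn1b rose (log2 fold change 1.47, SE 0.21, adjusted p = 0.00245), the retinoblastoma gene Rb1 rose (log2 fold change 1.19, SE 0.22, adjusted p = 0.00688), and its relative Rbl1, itself an E2F target, fell (log2 fold change -2.43, SE 0.29, adjusted p = 0.00118). Cdkn1b was 318 CPM in clone 129 and 192 to 219 CPM in the other astrocytes. Of 25 listed p53 targets 1 was higher and 9 lower (4 without mG2), and the 3 most lowered were Gtse1, a G2 protein that restrains p53, the kinase gene Plk2 and the antiproliferative gene Btg2 (log2 fold changes of -3.16, -2.53 and -2.31). Of 54 regulators of DNA methylation and chromatin 5 were higher and 19 lower (11 without mG2). Uhrf1 had 5.96, 5.01, 3.2, 4.82 and 3.53 CPM in the astrocytes and 157, 121 and 105 CPM in the NPCs. Uhrf1, which brings the maintenance methyltransferase to replicated DNA, fell most (log2 fold change -4.82, SE 0.26, adjusted p = 2.56e-05), followed by Hmgb2 (log2 fold change -3.85, SE 0.30, adjusted p = 0.00012) and the remodeller gene Hells (log2 fold change -3.38, SE 0.31, adjusted p = 0.000309). Ezh1, the Polycomb methyltransferase gene of non-dividing cells, rose from 5.38 to 6.29 CPM in NPCs to 21.3 to 31.2 CPM in astrocytes (log2 fold change 2.18, SE 0.22, adjusted p = 0.00045), as did the deacetylase genes Hdac9 and Hdac5 (log2 fold changes of 1.62 and 1.61). Of 11 linker and replication-independent histone genes 3 were lower, led by H2ax (log2 fold change -3.18, SE 0.28, adjusted p = 0.000219).

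Genes that make ribosomes and proteins formed the second set of decreases, wider and shallower. Of 78 cytoplasmic ribosomal protein genes 56 were lower and 0 higher, with a median log2 fold change of -0.91 and a summed level of 14705 to 21957 CPM against 24911 to 42948 CPM. The CPM of Rpsa were 184, 146, 231, 194 and 225 in astrocytes and 741, 513 and 472 in NPCs. In the astrocytes Rps6 had 39.8, 37.3, 50, 35.1 and 44.3 CPM, compared with 142, 107 and 80.7 CPM in the NPCs. Rpsa and Rps6 had log2 fold changes of -1.55 and -1.41. The count was 36 without mC3, 27 without F5 and 26 without mG2. The NPC library of F5 had the highest level of Rpsa and Rps6 and mG6 the lowest, though the groups did not overlap. Ribosomal protein genes share sequence with many pseudogenes, and how the counting split such reads is not known gene by gene. Of 86 pseudogenes named after ribosomal proteins 51 were lower and 1 higher.

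Of 51 genes for rRNA processing and RNA polymerase I, 36 were lower and 0 higher (median log2 fold change -1.04, and 22 without mG2). Nop56 was measured at 56.2, 39.2, 36.9, 31.6 and 31.6 CPM in astrocyte libraries and at 200, 171 and 133 CPM in NPC libraries. For Gnl3, the astrocyte libraries gave 42.2, 28.9, 28.7, 21.4 and 21.7 CPM and the NPC libraries 111, 103 and 102 CPM. Nop56 and Nop58, core proteins of the box C/D snoRNPs, and the nucleolar GTPase gene Gnl3 fell by 2.1, 1.84 and 1.88 on the log2 scale. Of 20 aminoacyl-tRNA synthetases 9 were lower (4 without mG2). Of 41 translation factors 17 were lower (11 without mC3, 9 without F5 and 10 without mG2). Of 35 genes for nuclear pores, export and importins 24 were lower (15 without mG2), and of 50 splicing factors 28 (16 without mC3, 11 without F5 and 9 without mG2). None of these lists held a gene called higher by edgeR, DESeq2 or limma-voom, and 0 of their genes had a higher level at an unadjusted edgeR p under 0.05. Kpna2 had 36.6, 22, 18.9, 25.5 and 22.5 CPM in the astrocytes and 246, 210 and 187 CPM in the NPCs. The importin gene Kpna2 fell most among them (log2 fold change -3.09, SE 0.23, adjusted p = 9.65e-05), with Hnrnpab (log2 fold change -1.89, SE 0.23, adjusted p = 0.00109) and Hnrnpa1 (log2 fold change -1.79, SE 0.31, adjusted p = 0.00535) leading the splicing factors. The CPM of Eef1a1 were 4040, 3583, 4156, 4254 and 4578 in astrocytes and 8022, 7786 and 6881 in NPCs. Eef1a1, the elongation factor gene and among the most sequenced in both groups, fell less (log2 fold change -0.88, SE 0.23, adjusted p = 0.0253), and was not called without C2 (adjusted p = 0.0506), mC3 (adjusted p = 0.0621), F5 (adjusted p = 0.0714) and mG2 (adjusted p = 0.0832).

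Of 33 proteasome genes 0 were called in either direction by edgeR (median log2 fold change -0.19), 1 in each direction had an unadjusted p under 0.05, and DESeq2 and limma-voom each called 1 higher. In the astrocytes Psmd2 had 312, 248, 291, 343 and 312 CPM, compared with 422, 302 and 309 CPM in the NPCs. The proteasome subunit gene Psmd2 overlapped between the groups. Of 72 nuclear genes of the respiratory chain 1 was higher and 0 lower, of 25 genes of cholesterol synthesis and uptake 2 were higher and 0 lower, and of 24 genes of the tricarboxylic acid cycle 2 were higher and 1 lower. Of 13 protein-coding genes of mitochondrial DNA 1 was lower, mt-Nd6 (log2 fold change -1.30, SE 0.20, adjusted p = 0.00333). Nuclear copies of mitochondrial DNA share sequence with these genes, so that their levels are uncertain. Of 30 chaperone genes 7 were higher (4 without mG6) and 12 lower (7 without mC3, 3 without F5 and 4 without mG2). The chaperonin genes Cct2 and Tcp1 fell (log2 fold changes of -1.07 and -1.02), and the small heat shock protein gene Hspb8 rose (log2 fold change 4.63, SE 0.98, adjusted p = 0.0115).

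**Figure D4:**
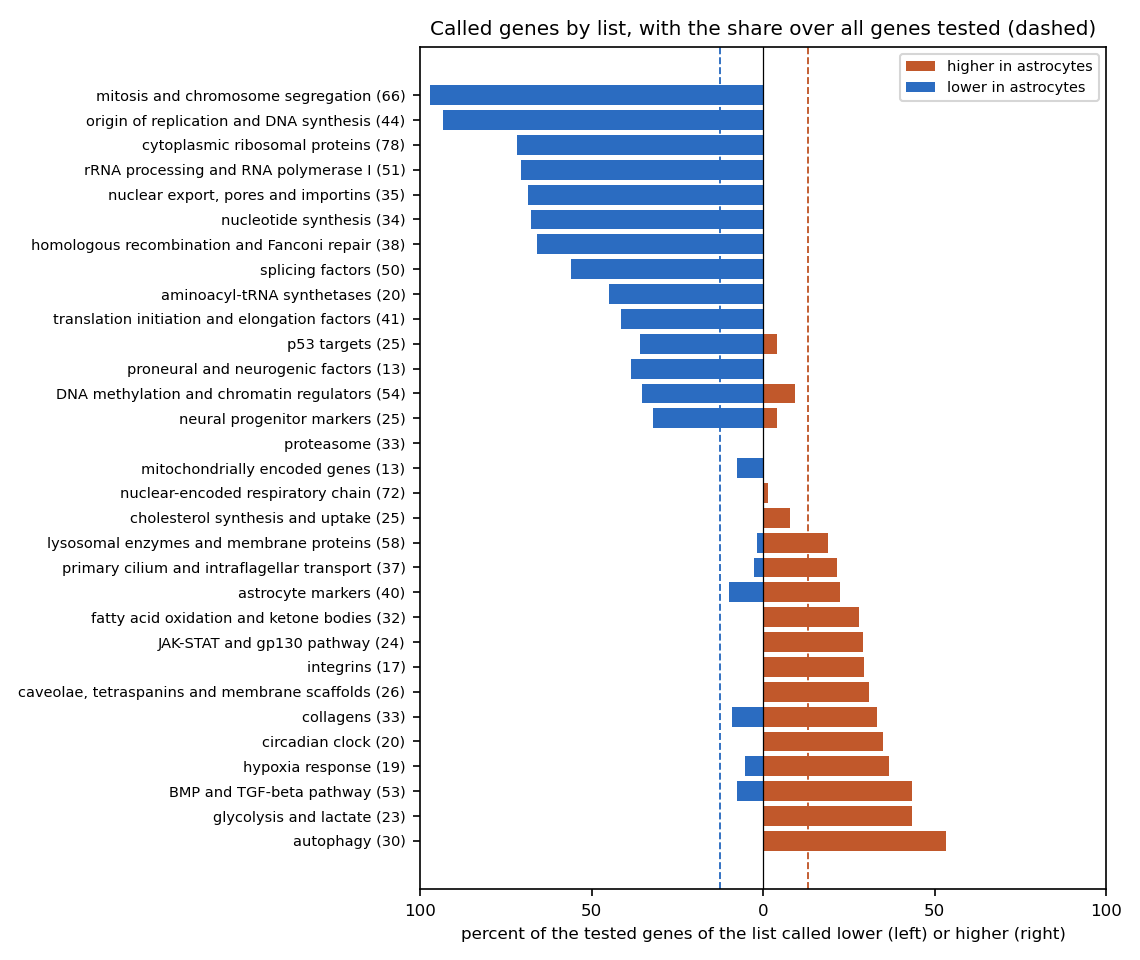
Percent of the tested genes called higher (orange, right) or lower (blue, left) in astrocytes for 31 gene lists, with the number tested in brackets and the shares over all genes, 13.0% and 12.6%, as dashed lines. Lists of division and protein synthesis reach up to 64 of 66 genes lower, and the autophagy list reaches 16 of 30 higher.

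Of the BMP, receptor tyrosine kinase, Wnt, Notch, JAK-STAT, hedgehog and Hippo lists, the BMP and TGF-beta list had the largest share of called genes, and 23 of 53 tested genes were higher and 4 lower, with a median log2 fold change of 1.62. Its summed level was 6887 to 8176 CPM in astrocytes and 2106 to 2666 CPM in NPCs. The inhibitors came first. Nog was measured at 55.6, 85.1, 438, 265 and 225 CPM in astrocyte libraries and at 0.167, 0.392 and 0.283 CPM in NPC libraries. For Smad6, the astrocyte libraries gave 171, 79.6, 94.7, 38.3 and 73.8 CPM and the NPC libraries 0.688, 0.716 and 0.234 CPM. Smad7 had 158, 177, 249, 71.4 and 138 CPM in the astrocytes and 3.3, 2.12 and 2.22 CPM in the NPCs. Nog encodes noggin, a secreted protein that binds BMP ligands, and Smad6 and Smad7 encode inhibitory SMADs that act at the receptors. They had 3.3 CPM or less in each NPC library and 38.3 CPM or more in each astrocyte library (Nog log2 fold change 9.58, SE 1.00, adjusted p = 0.000561, Smad6 log2 fold change 7.38, SE 0.71, adjusted p = 0.000365 and Smad7 log2 fold change 5.96, SE 0.49, adjusted p = 0.000157).

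The targets, receptors and signal carriers of the pathway are described with genes that were chosen after their values were seen. The CPM of Id1 were 388, 290, 162, 352 and 543 in astrocytes and 23.9, 30.3 and 18.7 in NPCs. In the astrocytes Id4 had 19.8, 59.4, 155, 52.3 and 46.2 CPM, compared with 0.985, 2.62 and 0.85 CPM in the NPCs. The 4 Id genes, whose proteins bind and block basic helix-loop-helix factors, were all called higher, with log2 fold changes of 3.84 for Id1, 3.86 for Id2, 1.98 for Id3 and 5.49 for Id4. The receptor genes Bmpr1a and Bmpr2 were higher as well, at 718 to 1042 CPM against 173 to 228 CPM for Bmpr1a (adjusted p = 0.000495) and at 1349 to 2152 CPM against 196 to 395 CPM for Bmpr2 (adjusted p = 0.00154). The signal carriers did not move as one: Smad5 fell (log2 fold change -1.39, SE 0.21, adjusted p = 0.00327), as did the TGF-beta receptor gene Tgfbr1 (log2 fold change -1.17, SE 0.23, adjusted p = 0.00857), whereas Smad9 rose (log2 fold change 5.07, adjusted p = 0.000365). Inhbb was measured at 0.547, 2.06, 2.58, 0.71 and 1.13 CPM in astrocyte libraries and at 61.2, 34.8 and 30.1 CPM in NPC libraries. The activin subunit gene Inhbb fell (log2 fold change -4.90, SE 0.56, adjusted p = 0.000898).

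Of the most raised genes of this list with a RefSeq promoter window, Smad6, Bmp5 and Id4 are shown, each of which was called higher. The uneven levels of Bmp5 among the astrocytes are given below. The letters searched were the GC-rich SMAD element (GGCGCC, the same on both strands), which is in capitals in the 250 bases before the gene start.
Smad6, chr9:64022060-64022309, minus strand: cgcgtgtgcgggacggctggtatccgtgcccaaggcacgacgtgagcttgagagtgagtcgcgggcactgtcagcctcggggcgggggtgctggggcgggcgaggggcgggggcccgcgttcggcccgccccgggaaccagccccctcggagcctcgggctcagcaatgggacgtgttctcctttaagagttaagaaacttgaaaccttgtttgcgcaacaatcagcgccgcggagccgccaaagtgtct
Bmp5, chr9:75775115-75775364, plus strand: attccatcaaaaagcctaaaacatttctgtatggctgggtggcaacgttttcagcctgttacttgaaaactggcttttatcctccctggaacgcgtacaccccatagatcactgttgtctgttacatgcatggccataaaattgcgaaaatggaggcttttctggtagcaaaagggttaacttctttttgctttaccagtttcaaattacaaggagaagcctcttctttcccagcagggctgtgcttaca
Id4, chr13:48260866-48261115, plus strand: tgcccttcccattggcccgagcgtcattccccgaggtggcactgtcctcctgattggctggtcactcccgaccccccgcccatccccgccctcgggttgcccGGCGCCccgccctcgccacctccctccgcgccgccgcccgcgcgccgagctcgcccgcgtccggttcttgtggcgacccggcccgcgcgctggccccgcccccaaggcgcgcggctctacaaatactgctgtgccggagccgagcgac

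Of these 3 runs that of Id4 held it, starting at -148. The element was in 11 of 32 windows of the list (34.4%), and in 22.2% of all tested genes and 24.3% of both the higher and the lower genes. For Bmp5, the astrocyte libraries gave 20.8, 1.34, 0.233, 4.13 and 0.986 CPM and the NPC libraries 0.167, 0.0405 and 0.135 CPM. Bmp5, a BMP ligand gene, was highest in clone 129 (log2 fold change 5.55, SE 1.65, adjusted p = 0.0395), and was not called without mC3 (adjusted p = 0.0593), F5 (adjusted p = 0.107), mG2 (adjusted p = 0.132) and mG6 (adjusted p = 0.11).

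Of 39 genes for receptor tyrosine kinases and ERK feedback 2 were higher and 6 lower, beside 12.6% of all genes tested that were lower, and the median log2 fold change of the list was 0.08. Egfr had 22, 43.3, 45.9, 34.4 and 22 CPM in the astrocytes and 263, 325 and 324 CPM in the NPCs. The CPM of Myc were 9.33, 7.68, 12.3, 15.8 and 10.6 in astrocytes and 165, 137 and 102 in NPCs. In the astrocytes Ccnd1 had 131, 246, 27.3, 41.8 and 36.7 CPM, compared with 1328, 1410 and 2805 CPM in the NPCs. Egfr, the receptor of EGF, fell (log2 fold change -3.18, SE 0.29, adjusted p = 0.000259), as did the growth regulator gene Myc (log2 fold change -3.60, SE 0.26, adjusted p = 9.54e-05) and the G1 cyclin gene Ccnd1 (log2 fold change -4.26, SE 0.76, adjusted p = 0.00611), whose level ranged from 27.3 to 246 CPM among the astrocytes.

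Of 43 Wnt pathway genes 8 were higher (5 without G4, 3 without F5, 2 without mG2 and 3 without mG6) and 6 lower (3 without mG2). Wif1 was measured at 118, 1311, 1017, 937 and 752 CPM in astrocyte libraries and at 8.4, 5.29 and 1.34 CPM in NPC libraries. For Wnt7b, the astrocyte libraries gave 1.79, 2, 8.85, 4.28 and 17.9 CPM and the NPC libraries 130, 89.6 and 92 CPM. Wif1, a secreted Wnt inhibitor, rose (log2 fold change 7.36, SE 1.06, adjusted p = 0.00255), and the ligand gene Wnt7b (log2 fold change -3.90, SE 0.74, adjusted p = 0.00749) and the target gene Axin2 (log2 fold change -1.47, SE 0.24, adjusted p = 0.00425) fell. In the Notch list 4 of 27 genes were higher and 5 lower. Hey1, a transcriptional repressor that BMP signals can also induce, rose (log2 fold change 3.15, SE 0.61, adjusted p = 0.00833), while the feedback gene Nrarp fell (log2 fold change -5.79, SE 0.87, adjusted p = 0.00305). In the JAK-STAT and gp130 list 7 of 24 genes were higher (2 without F5, 2 without mG2 and 3 without mG6) and 0 lower. Jak3 had 39.7, 24.1, 29.6, 16.8 and 20.1 CPM in the astrocytes and 4.34, 4.39 and 5.37 CPM in the NPCs. Jak3, which encodes a cytokine receptor kinase, rose (log2 fold change 2.47, SE 0.33, adjusted p = 0.00181). In the hedgehog list 2 of 13 genes were higher and 2 lower, with the co-receptor gene Boc at 245 to 971 CPM in astrocytes and 13.3 to 46.5 CPM in NPCs (log2 fold change 4.05, SE 0.67, adjusted p = 0.00447). Of 22 Hippo and serum response targets 6 were higher (3 without mG2) and 3 lower, Ccn1 rising (log2 fold change 3.78, SE 0.71, adjusted p = 0.00739) and Srf falling (log2 fold change -0.96, SE 0.16, adjusted p = 0.00455).

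The genes that mark astrocytes did not rise as a block. Of 40 tested astrocyte markers 9 were higher, 4 lower and 27 not called, with a median log2 fold change of 0.84. Their summed level was 10332 to 20393 CPM in the astrocytes and 5428 to 5731 CPM in the NPCs. The CPM of Cst3 were 480, 1668, 3097, 2385 and 2950 in astrocytes and 164, 173 and 91.4 in NPCs. In the astrocytes Atp1b2 had 539, 639, 523, 665 and 576 CPM, compared with 50.1, 112 and 74.3 CPM in the NPCs. Beside Gfap and Aqp4, the protease inhibitor gene Cst3 (log2 fold change 3.89, SE 0.65, adjusted p = 0.00469) and Atp1b2, a beta subunit of the sodium pump (log2 fold change 2.90, SE 0.29, adjusted p = 0.00045), rose. Slc1a2 was measured at 274, 291, 1107, 744 and 490 CPM in astrocyte libraries and at 19.1, 94.3 and 38.7 CPM in NPC libraries. The glutamate transporter gene Slc1a2 rose (log2 fold change 3.52, SE 0.72, adjusted p = 0.0101). For Aldh1l1, the astrocyte libraries gave 8.45, 2.49, 4.86, 5.5 and 11.5 CPM and the NPC libraries 20.6, 13.9 and 23.3 CPM. Mfge8 had 92, 100, 92.7, 73.9 and 109 CPM in the astrocytes and 197, 131 and 194 CPM in the NPCs. Aldh1l1, a folate enzyme used as a marker of astrocytes, and Mfge8, which encodes a bridging protein for phagocytosis, were lower (log2 fold change -1.55, SE 0.45, adjusted p = 0.0366 and log2 fold change -0.89, SE 0.19, adjusted p = 0.0118), though Aldh1l1 was not called without G4 (adjusted p = 0.0656), mC3 (adjusted p = 0.076), F5 (adjusted p = 0.1), mG2 (adjusted p = 0.0655) and mG6 (adjusted p = 0.0974). Among 19 gliogenic transcription factors 1 was higher, Nr2f2 (log2 fold change 1.56, SE 0.29, adjusted p = 0.0071), and 2 were lower, Nfia (log2 fold change -0.73, SE 0.16, adjusted p = 0.0128) and Nfib (log2 fold change -0.83, SE 0.25, adjusted p = 0.0427). Nfia was not called without F5 (adjusted p = 0.052), and Nfib was not called without C2 (adjusted p = 0.0645), mC3 (adjusted p = 0.0879), F5 (adjusted p = 0.0918), mG2 (adjusted p = 0.134) and mG6 (adjusted p = 0.0747).

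Of 33 genes reported for reactive astrocytes 6 were higher and 0 lower. The CPM of Sphk1 were 32.2, 93, 81.2, 191 and 208 in astrocytes and 0.65, 1.77 and 1.16 in NPCs. Sphk1, a sphingosine kinase gene, was higher in every astrocyte library than in any NPC library (log2 fold change 6.67, SE 0.81, adjusted p = 0.00118). Of 17 genes for glutamate and GABA handling 5 were higher and 1 lower, and of 21 genes for gap junctions, aquaporins and ion channels of astrocytes 4 were higher and 2 lower. In the astrocytes Kcnj16 had 1.67, 0.119, 1.81, 0.431 and 0.797 CPM, compared with 39.3, 19.5 and 22.1 CPM in the NPCs. The potassium channel gene Kcnj16 fell (log2 fold change -4.80, SE 0.77, adjusted p = 0.00406). Of 53 voltage-gated channel genes 7 were higher and 5 lower. Kcnc1 was measured at 11.8, 28.3, 40.5, 105 and 51.6 CPM in astrocyte libraries and at 585, 722 and 976 CPM in NPC libraries. For Kcnh2, the astrocyte libraries gave 107, 184, 174, 90.3 and 116 CPM and the NPC libraries 12.3, 8.52 and 3.45 CPM. Kcnc1 fell and Kcnh2 rose (log2 fold change -4.0, SE 0.60, adjusted p = 0.00302 and log2 fold change 4.05, SE 0.49, adjusted p = 0.00118). In the list of intermediate filaments Gfap and the linker gene Plec (log2 fold change 4.42, SE 0.51, adjusted p = 0.000937) rose, and with Nes the nuclear lamin genes Lmnb1 (log2 fold change -3.58, SE 0.47, adjusted p = 0.00176) and Lmnb2 (log2 fold change -1.64, SE 0.23, adjusted p = 0.00216) fell.

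Among 25 tested progenitor markers 1 was higher and 8 lower (5 without mG2). Sox3 had 0.933, 0.503, 0.713, 1.41 and 1.2 CPM in the astrocytes and 90.3, 72.2 and 23.1 CPM in the NPCs. The CPM of Olig2 were 96.4, 106, 68.9, 155 and 286 in astrocytes and 952, 644 and 698 in NPCs. The progenitor factor gene Sox3 (log2 fold change -6.02, SE 0.52, adjusted p = 0.000206) and Olig2, a factor of progenitors and the oligodendrocyte lineage (log2 fold change -2.42, SE 0.43, adjusted p = 0.00597), fell. In the astrocytes Hmga2 had 251, 242, 130, 115 and 80.5 CPM, compared with 28, 33.9 and 20.4 CPM in the NPCs. Hmga2, a chromatin protein gene of young stem cells, was the one that rose (log2 fold change 2.58, SE 0.44, adjusted p = 0.00516). Of 13 proneural and neurogenic factors 5 were lower and 0 higher, with the largest decrease in Neurod1 (log2 fold change -3.80, SE 0.57, adjusted p = 0.00295).

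Single matrix genes changed widely in both directions. Ncan, which encodes the proteoglycan neurocan, took the largest share of all reads in the astrocytes, 1.13% on average against 0.0232% in the NPCs. Ncan was measured at 2081, 7133, 12360, 15512 and 20844 CPM in astrocyte libraries and at 104, 355 and 217 CPM in NPC libraries. Its level was lowest in clone 129, but above all NPC libraries there too (log2 fold change 5.68, SE 0.92, adjusted p = 0.00406). For Fmod, the astrocyte libraries gave 319, 157, 542, 427 and 289 CPM and the NPC libraries 0.0929, 0.162 and 0.123 CPM. Serpinf1 had 568, 976, 138, 120 and 555 CPM in the astrocytes and 1.19, 1.63 and 5.15 CPM in the NPCs. The CPM of Bgn were 40.5, 83.8, 56.3, 13.9 and 18.4 in astrocytes and 0.0929, 0.108 and 0.468 in NPCs. The small leucine-rich proteoglycan genes Fmod (log2 fold change 11.43, SE 0.63, adjusted p = 3.02e-05) and Bgn (log2 fold change 7.58, SE 1.01, adjusted p = 0.00187) rose, as did Serpinf1, which encodes pigment epithelium-derived factor (log2 fold change 7.47, SE 1.10, adjusted p = 0.00283). In the astrocytes Vcan had 48.9, 58.5, 16, 44.6 and 33.7 CPM, compared with 197, 403 and 730 CPM in the NPCs. Fbln2 was measured at 0.536, 0.317, 0.532, 0.114 and 0.155 CPM in astrocyte libraries and at 17.2, 18.3 and 325 CPM in NPC libraries. Vcan, another large proteoglycan gene (log2 fold change -3.46, SE 0.49, adjusted p = 0.00238), and the fibulin gene Fbln2 (log2 fold change -8.50, SE 1.19, adjusted p = 0.00233) fell, the second with 325 CPM in mG6 against 17.2 and 18.3 CPM in the other NPC clones.

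In the whole list of laminins, proteoglycans and matrix glycoproteins 7 of 57 genes were higher and 11 lower (7 without F5, 5 without mG2 and 7 without mG6). That is 12.3% and 19.3%, beside 13.0% and 12.6% of all genes, so that the share of higher genes was near that over all genes. Of 33 collagen genes 11 were higher (5 without F5, 4 without mG2 and 5 without mG6) and 3 lower (median log2 fold change 1.67). For Col1a1, the astrocyte libraries gave 10.5, 211, 34, 30.1 and 2.39 CPM and the NPC libraries 0.455, 0.756 and 0.591 CPM. Col18a1 had 7.04, 14.2, 0.674, 3.85 and 3.81 CPM in the astrocytes and 30.5, 105 and 280 CPM in the NPCs. Col1a1 rose (log2 fold change 6.59, SE 1.58, adjusted p = 0.0186) with 211 CPM in C2 and 2.39 to 34 CPM in the other astrocytes, and was not called without F5 (adjusted p = 0.0749), mG2 (adjusted p = 0.0713) and mG6 (adjusted p = 0.0673). Col18a1 fell (log2 fold change -4.55, SE 0.94, adjusted p = 0.0104). Of 39 matrix proteases and inhibitors 10 were higher and 5 lower, with Timp4, an inhibitor of metalloproteinases, among the first (log2 fold change 4.43, SE 0.80, adjusted p = 0.00621). Of 17 integrins 5 were higher and 0 lower, Itgb3 (log2 fold change 4.47, SE 0.70, adjusted p = 0.00362) and Itga10 (log2 fold change 4.71, SE 0.91, adjusted p = 0.00818) among them. Cd9, the tetraspanin gene, rose (log2 fold change 3.58, SE 0.57, adjusted p = 0.0039), with 8 of 26 genes of caveolae, tetraspanins and membrane scaffolds higher (5 without C2, 5 without mC3, 5 without mE6, 4 without F5, 2 without mG2 and 3 without mG6) and 0 lower. Of 61 axon guidance genes 6 were higher (3 without mG6) and 7 lower (4 without G4, 4 without mG2 and 4 without mG6). Of 36 cadherin and adhesion genes 6 were higher and 3 lower, with Cdh22 (log2 fold change 3.68, SE 0.48, adjusted p = 0.00161) and Cntn1 (log2 fold change 3.12, SE 0.64, adjusted p = 0.0104) rising.

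Genes of autophagy, glycolysis, fatty acid oxidation and lysosomes were called higher at 53.3%, 43.5%, 28.1% and 19%, beside 13.0% of all genes. Of 30 autophagy genes 16 were higher (10 without mC3, 9 without F5, 8 without mG2 and 9 without mG6) and 0 lower. Their median log2 fold change was 0.70, and the summed level was 3291 to 3776 CPM in astrocytes against 1936 to 2183 CPM in NPCs. The CPM of Wipi1 were 82.8, 253, 149, 202 and 128 in astrocytes and 34.1, 34.2 and 53.5 in NPCs. In the astrocytes Map1lc3a had 44, 53.9, 46, 65.6 and 80.4 CPM, compared with 16.9, 14.9 and 14 CPM in the NPCs. Wipi1, a phosphoinositide-binding protein of the forming autophagosome (log2 fold change 2.0, SE 0.38, adjusted p = 0.00776), and Map1lc3a, an LC3 gene (log2 fold change 1.93, SE 0.25, adjusted p = 0.00148), were higher in each astrocyte library than in any NPC library. Sqstm1 was measured at 834, 369, 360, 388 and 365 CPM in astrocyte libraries and at 199, 133 and 133 CPM in NPC libraries. The cargo receptor gene Sqstm1 rose too (log2 fold change 1.58, SE 0.35, adjusted p = 0.0146), to 834 CPM in 129 and 360 to 388 CPM in the other clones, and was not called without mG2 (adjusted p = 0.0686) and mG6 (adjusted p = 0.0612). Of 58 lysosomal genes 11 were higher (4 without F5 and 3 without mG2) and 1 lower, with the protease gene Lgmn (log2 fold change 2.76, SE 0.54, adjusted p = 0.00851) and Tfeb, the transcription factor of lysosomal genes (log2 fold change 2.15, SE 0.25, adjusted p = 0.001), among the first. Over all genes 1227 of 18831 were higher without F5 and 1000 of 18798 without mG2. The lysosomal counts under these omissions were thus near the share over all genes.

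Of 23 glycolysis and lactate genes 10 were higher (4 without mG2 and 6 without mG6) and 0 lower (median log2 fold change 0.94), at 7187 to 11844 CPM in sum against 4399 to 6473 CPM. For Pdk1, the astrocyte libraries gave 56.5, 54.9, 66.4, 55.4 and 50.4 CPM and the NPC libraries 4.26, 8.55 and 13.7 CPM. Pfkp had 14.2, 23, 4.43, 8.1 and 7.42 CPM in the astrocytes and 1.21, 1.24 and 0.825 CPM in the NPCs. Pdk1, which holds back pyruvate dehydrogenase (log2 fold change 2.68, SE 0.37, adjusted p = 0.00202), and Pfkp, the platelet form of phosphofructokinase (log2 fold change 3.39, SE 0.60, adjusted p = 0.00603), rose. Pdk1 is also on the list of hypoxia genes, of which 7 of 19 were higher (4 without G4, 4 without mC3, 3 without F5 and 2 without mG2) and 1 lower. Of 32 genes for fatty acid oxidation and ketone bodies 9 were higher (4 without mG2 and 4 without mG6) and 0 lower. Of 30 genes of fatty acid synthesis and lipid droplets 7 were higher (4 without C2, 4 without mC3, 4 without mE6, 2 without F5, 1 without mG2 and 1 without mG6) and 2 lower, and of 20 genes of cholesterol efflux and lipoproteins 5 were higher and 0 lower. The CPM of Mylip were 69.1, 89.1, 62.6, 21.3 and 37.1 in astrocytes and 4.68, 2.32 and 5.07 in NPCs. Mylip, which encodes the ligase that degrades the LDL receptor, rose (log2 fold change 3.79, SE 0.55, adjusted p = 0.00264). Of 17 genes of one-carbon and serine synthesis 2 were higher and 5 lower, with the serine synthesis gene Psat1 (log2 fold change -2.52, SE 0.43, adjusted p = 0.005) falling and Aldh1l2, the mitochondrial folate enzyme (log2 fold change 2.81, SE 0.57, adjusted p = 0.00966), rising.

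Of 42 antioxidant and NRF2 genes 9 were higher (14 without 129, 4 without mG2 and 5 without mG6) and 1 lower. In the astrocytes Gpx4 had 521, 371, 301, 208 and 370 CPM, compared with 100, 64.3 and 67.6 CPM in the NPCs. Gpx4, the lipid peroxidase gene, rose (log2 fold change 2.2, SE 0.33, adjusted p = 0.00295), and Nqo1 rose from 26.9 to 33.4 CPM in NPCs to 192 to 663 CPM in C2, G4, mC3 and mE6 but was 34.1 CPM in 129 (log2 fold change 3.46, SE 0.83, adjusted p = 0.0183, and not called without F5 (adjusted p = 0.065), mG2 (adjusted p = 0.0749) and mG6 (adjusted p = 0.0685)). Of 24 metal handling genes 3 were higher and 1 lower, and of 30 genes of endoplasmic reticulum stress 4 and 1. Of 20 circadian clock genes 7 were higher (4 without F5 and 3 without mG2) and 0 lower, among them Arntl (log2 fold change 1.67, SE 0.27, adjusted p = 0.00415) and Nfil3 (log2 fold change 2.23, SE 0.29, adjusted p = 0.00166). Arntl was measured at 81.8, 59.3, 71.5, 68.4 and 42.8 CPM in astrocyte libraries and at 15.4, 26.6 and 18.9 CPM in NPC libraries. The time of day of sampling is not given in the sources used here.

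**Figure D5:**
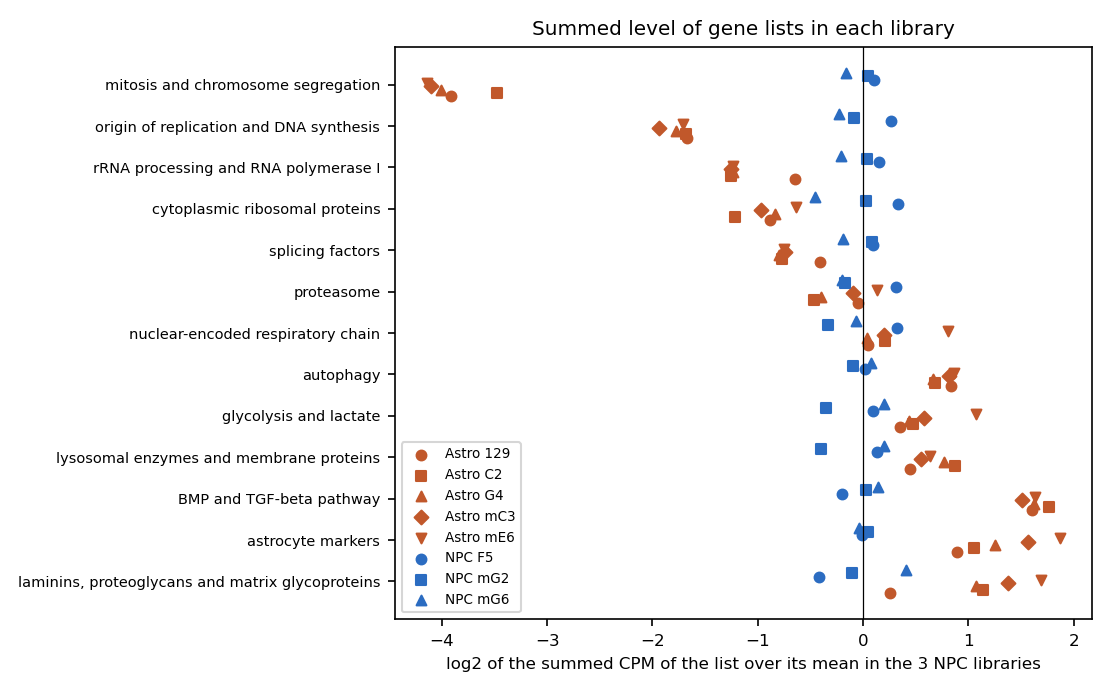
Summed CPM of 13 gene lists in each of the 8 libraries, as log2 of the ratio to the mean of the 3 NPC libraries (orange: astrocytes, blue: NPCs, symbols: clones). The mitosis sum of every astrocyte library lies below all NPC libraries, the BMP sum lies above, and the proteasome and respiratory chain sums overlap.

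Immune genes gave small counts in both directions. Of 32 interferon-stimulated genes 5 were higher and 3 lower, with Mx1 rising (log2 fold change 2.80, SE 0.42, adjusted p = 0.00295) and Gbp7 (log2 fold change -6.15, SE 0.79, adjusted p = 0.00155) and Gbp3 (log2 fold change -3.86, SE 0.68, adjusted p = 0.00581) falling. Of 19 genes of MHC class I and antigen processing 1 was higher, Tapbp, which encodes tapasin (log2 fold change 1.52, SE 0.25, adjusted p = 0.00418). In the NF-kappaB feedback list 2 of 16 were higher and 1 lower, with the inhibitor gene Nfkbia at 44.9 to 94.6 CPM against 12.9 to 19.4 CPM (log2 fold change 2.12, SE 0.28, adjusted p = 0.00175). Of 20 complement and chemokine genes 2 were higher and 2 lower, C3 rising (log2 fold change 4.42, SE 0.78, adjusted p = 0.00591) and Ccl2 falling (log2 fold change -3.38, SE 0.71, adjusted p = 0.0111).

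Markers of other cells were examined beside these results, and their part in them was not tested. Of 25 neuronal markers 5 were higher and 2 lower, at 746 to 1654 CPM in sum in astrocytes and 1264 to 2016 CPM in NPCs. Snap25, Stmn3 and Stx1a were among the higher ones (log2 fold changes of 4.09, 3.24 and 2.06) and Gap43 among the lower (-3.15). How these calls held when a library was left out is not given here. Slc17a6 and Slc32a1, the transporter genes that define glutamatergic and GABAergic neurons, did not pass the filter on low counts. Of 16 oligodendrocyte lineage markers 2 were higher and 2 lower (401 to 2192 CPM against 2028 to 2468 CPM), and the myelin genes Mog, Mag and Mobp did not pass the filter. Of 17 mesenchymal markers 4 were higher and 0 lower (72 to 332 CPM against 52.4 to 98.4 CPM), led by Col1a1. Of 13 endothelial markers 5 were higher and 2 lower (26.3 to 116 CPM against 8.59 to 11.3 CPM), and their astrocyte level was mostly that of Kdr (log2 fold change 4.99, SE 0.91, adjusted p = 0.00648), which had 104 CPM in C2, while Cdh5 and Cldn5 did not pass the filter. Of 7 microglia and leukocyte markers tested 2 were higher and 1 lower, Tmem119 rising (log2 fold change 5.62, SE 0.76, adjusted p = 0.00192), and Ptprc, Cx3cr1 and C1qa did not pass the filter. Of 9 pluripotent cell markers 1 was higher and 2 lower (9.57 to 24.6 CPM against 11 to 19.1 CPM), of 8 endoderm and mesoderm markers 1 was higher and 1 lower, and of 23 genes of ependymal cells and motile cilia 2 were higher and 4 lower. Of 37 genes of the primary cilium 8 were higher (3 without G4, 4 without mC3, 4 without mE6, 2 without F5, 3 without mG2 and 2 without mG6) and 1 lower, led by Ift57 (log2 fold change 2.50, SE 0.31, adjusted p = 0.0014).

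By RefSeq gene type the 13815 tested protein-coding genes split evenly, with 1891 higher and 1762 lower. Of 526 long non-coding RNA genes 96 were higher and 43 lower (median log2 fold change 0.65). Of 690 pseudogenes 21 were higher and 211 lower (median -0.63), and of 33 snoRNA genes 0 were higher and 6 lower. The RNA was poly(A)-enriched, and whether reads on snoRNA genes came from snoRNAs or from overlapping transcripts was not tested. Among symbol families with at least 20 tested protein-coding genes, the lowest medians were those of Rpl (0 higher and 34 lower of 47), Nup (0 and 12 of 20), Rps (2 and 23 of 42), Cep (1 and 10 of 34), Ddx (0 and 10 of 33) and Cdc (2 and 11 of 31), and the highest was that of Col (11 higher and 4 lower of 38). These families go by the letters before the first digit of the symbol. The 2 higher Rps genes are not on the list of 78 cytoplasmic ribosomal protein genes, which held 0 higher.

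The widest differences of single genes were described by a fixed rule. Among protein-coding genes of at least 5 CPM in the higher group whose ranges did not overlap, the 15 most lowered began with Pclaf, which encodes a PCNA-binding factor. For Pclaf, the astrocyte libraries gave 0.118, 0.357, 0.0778, 0.342 and 0.0775 CPM and the NPC libraries 117, 83.3 and 73.9 CPM. All but Fbln2, the laminin gene Lama4 and Tmc3 act in or mark dividing cells. Lama4 had 14.1, 0.23 and 96.2 CPM and Tmc3 2.56, 18.7 and 55.3 CPM in F5, mG2 and mG6, so that the NPC clones differed from each other in both. Most of the 15 most raised had few or no reads in NPCs. Inpp5j, which encodes an inositol phosphatase, had 1, 1 and 0 reads in the NPC libraries and 1696 to 13404 in the astrocytes. Myl1, a myosin light chain gene of skeletal muscle, had no read in any NPC library and 157 to 1854 in the astrocytes, which is at least 310-fold higher on average if 3 reads are taken as the floor of each NPC library. C1qtnf3 had 23.2, 53.9, 383, 11.6 and 9.84 CPM in the astrocytes and 0.065, 0.0405 and 0.0246 CPM in the NPCs. The CPM of Diras2 were 37.3, 380, 291, 801 and 538 in astrocytes and 0.455, 1.49 and 1.03 in NPCs. In the astrocytes Mrvi1 had 226, 209, 87.5, 25.2 and 10.3 CPM, compared with 0.223, 0.149 and 0.271 CPM in the NPCs. The secreted protein gene C1qtnf3 (log2 fold change 11.02, SE 2.04, adjusted p = 0.0069), the small GTPase gene Diras2 (log2 fold change 8.70, SE 1.18, adjusted p = 0.00196) and Mrvi1 (log2 fold change 9.01, SE 1.37, adjusted p = 0.00322) were higher in every astrocyte library than in any NPC library. Among the astrocytes C1qtnf3 and Mrvi1 were lowest in mE6 and Diras2 in 129.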

How the data were processed

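Poly(A)-enriched total RNA was made into stranded libraries and sequenced as paired ends. Per the labels' processing notes and the study's methods, the authors aligned reads to an N-masked GRCm38 genome with Bowtie2 and TopHat2 2.1.0, assigned them to the 129Sv or Cast/EiJ allele and counted them on genes with featureCounts 1.5.1 in its stranded mode. The annotation version is not given in the sources used here. The methods say that biological replicates were merged, so that p-values measure the spread between clones. The deposited values are raw read counts per gene, and the column of all reads was used.

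Counts of the 5 astrocyte and 3 poly(A) NPC libraries were filtered with filterByExpr, normalized by TMM and fitted with edgeR 4.0.16 in R 4.3.3 (quasi-likelihood test, two-sided, Benjamini-Hochberg adjustment over the 18192 genes kept, which held 99.96% of reads). A fold change is astrocytes over NPCs. DESeq2 1.42.0 and limma 3.58.1 were alternatives. On simulated counts, 39 of 99 genes changed 4-fold (log2 of 2) and 4 of 96 changed by a log2 of 1 were called. Small changes could thus be missed. Among the 17794 genes tested in all, 0 unchanged genes were called. Far fewer genes were changed in the simulation than were called in the data. The adjusted threshold was therefore harder to reach, and these shares do not give the recovery in the data. The gene lists and the genes named were chosen with earlier results of these data known. Named genes were the 4 markers, up to 3 called genes per list and direction of at least 5 CPM with the largest change (the 2 with the most reads where none was called), the 15 highest and 15 lowest fold changes and the genes with the most reads. Gene types and promoters were from RefSeq. A few genes that the rule names are not reported here.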

Additional observations from a re-analysis of the deposited data

Results flagged for a closer look

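Among 132 genes examined, 11 had an astrocyte library apart from the other 4, with a gap to the nearest that exceeded Dixon's 95% critical value for 5 samples (0.71 of the range). Chance flags about 1 group in 20. In 8 of the 11 the library was that of clone 129, where Gfap was at 1977 CPM, Sqstm1 at 834, Hnrnpa1 at 520, Cdkn1b at 318, Hnrnpab at 244, Nop58 at 71.2, Bmp5 at 20.8 and Ccl2 at 0.0858 CPM. Ccl2, a chemokine gene, was lower there than in the other astrocytes, and the other genes named for this clone were higher. In clone C2, Col1a1 stood at 211 CPM and the repair gene Fancd2 at 1.71 CPM, both above the other astrocytes. In clone G4, C1qtnf3 stood at 383 CPM, above the others. Whether the clone, the title code or the culture made these libraries differ was not tested.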

How the results depend on the processing

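No paired analysis was possible with these libraries because no clone is in both groups. The paper compared allelic ratios of 5 NPC clones with those of their astrocytes. Libraries of other series were not used here. Counts were made again with other normalizations, filters, tests, read sets and samples, and genes called both ways never changed direction. The number of genes higher, 2360, was 1468 from 129 reads only, 1211 from Cast reads only, 1524 with the A234 astrocytes only and 778 at an adjusted p under 0.01. The number of genes lower, 2284, was 1429 from Cast reads only, 1507 with the B129 astrocytes only and 964 at an adjusted p under 0.01. Genes at least 4-fold different, 1930 in number, were 1215 from 129 reads only, 1074 from Cast reads only, 1266 with a mean of at least 1 CPM and 1052 at an adjusted p under 0.01. Fewer reads, samples or genes or a stricter threshold enter by construction. Leaving out each library in turn gave 1000 to 2505 genes higher, 1269 to 2344 lower and 1325 to 2098 at least 4-fold different. The share of calls that were higher was 50.8% and went from 39.8% (without mG6, which turned the balance) to 51.7% under these omissions, and lay at 45.9% to 54.4% under the other alternatives except a stricter threshold (44.7%). DESeq2 called 3280 genes higher and 3000 lower. With limma-voom 2117 and 2387 were called. The median log2 fold change of ependymal and motile cilium genes was 0.57 and went to -0.31 without the genes of chromosomes 1, 3, 4, 12 and 18, an alternative chosen after seeing the data. That of NF-kappaB feedback was -0.10 and went from -0.24 to 0.05 (without F5) when a library was left out. The cause was not tested for either. Of 3128 values of the 132 genes examined above under the alternatives, 75 lost their call and none changed sign. Group sizes of 5 and 3 limit which small changes can be called.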
